A study of Mus musculus with 11 samples.

Results

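Potassium channel genes were taken as the protein-coding genes of the mouse GENCODE annotation whose symbol starts with Kcn and that had at least 10 raw counts in at least 5 of the 11 libraries. Of 94 such genes in the annotation and in the count files, 79 met the count rule, and all 79 were among the 17293 genes tested. The rule used expression level over all libraries and not genotype. The 79 genes were ordered by channel family, and the pore-forming subunits of voltage-gated (Kv), inward rectifier (Kir), background (K2P), sodium-activated (Slack and Slick), large-conductance (BK) and small-conductance (SK) channels were described before their auxiliary subunits.

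The data are RNA counts from the CA1 field of the hippocampus of mice aged 3 months. One group was 6 libraries from CamkdeltaC transgenic mice, and the other was 5 libraries from their littermates without the transgene. CamkdeltaC is a splice form of a calcium/calmodulin-dependent protein kinase II subunit, and in this heart failure model it is expressed from a cardiac muscle promoter, so a count of the kinase gene in CA1 does not check the genotype labels. The title of the series ties heart failure to impaired memory, and the question here is which potassium channel transcripts differed in CA1. Animals of both sexes were used, but the sex of a library, its litter and its batch were not given, and the labels do not say whether libraries came from separate animals. The p-values therefore measure the spread between these libraries, which may in part be technical.

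Potassium channels let potassium leave the cell and set how far a neuron is from its firing threshold, how fast it repolarizes after a spike and how often it can fire again. In CA1 pyramidal neurons, Kv4 channels with their KChIP partners carry the transient A-type current of the dendrites, Kv7 channels carry the M-current, SK and BK channels follow calcium entry, and G protein-gated Kir3 channels answer inhibitory receptors. Astrocytes of the hippocampus rely on Kir4.1 and on K2P channels to take up the potassium that neurons release.

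Library totals were 24403918 to 34153726 counts in transgenic libraries, against 14263784 counts in control 5 and 31679533 to 36898689 counts in the other controls. Camk2d, the gene of the kinase, did not differ beyond the spread between libraries, with 40.4 to 132 CPM (counts scaled to library size) in transgenic libraries and 53.7 to 94.3 CPM in controls (difference in mean log2 CPM -0.20, two-sided exact permutation p = 0.567, n = 6 and 5). The 4 marker genes of CA1 pyramidal neurons, Wfs1, Fibcd1, Mpped1 and Man1a, summed to 1030 to 1340 CPM in transgenic libraries and 908 to 1180 CPM in controls, with none at 0. EdgeR called 0 of them, at log2 fold changes of 0.42, 0.14, 0.18 and -0.31. Wfs1, Mpped1 and Man1a had an unadjusted edgeR p of 0.0243, 0.0188 and 0.0435, so the sum covers shifts in both directions. Wfs1 ran from 142 to 330 CPM within controls. Some markers of other cells were called, beside 7.41% of all genes tested that rose and 10.5% that fell. With the GC trend removed, as described below, edgeR called 0 genes of every marker list. Of the 6 microglia markers 3 rose, and their sum was 255 to 342 CPM in transgenic libraries and 227 to 280 CPM in controls. Of the 8 interneuron markers 2 rose, Slc32a1 and Cck, and their sum was 1260 to 1420 CPM in transgenic libraries and 1170 to 1260 CPM in controls. Of the 6 astrocyte markers 1 rose and 1 fell, and their sum was 4410 to 5240 CPM in transgenic libraries and 5170 to 5780 CPM in controls. Summed CA3 and CA2 markers were at 172 to 213 CPM in transgenic libraries and 170 to 263 CPM in controls, and dentate granule markers at 49.0 to 152 CPM in transgenic libraries and 41.5 to 175 CPM in controls. Oligodendrocyte markers were at 3280 to 5690 CPM in transgenic libraries and 2730 to 4670 CPM in controls, and those of their precursors at 224 to 289 CPM in transgenic libraries and 209 to 239 CPM in controls. EdgeR called 0 genes of these 4 lists, with 4 at an unadjusted p under 0.05. Endothelial markers, of which 1 of 4 fell, were at 100 to 134 CPM in transgenic libraries and 112 to 159 CPM in controls. Mural markers, of which 1 of 4 fell, were at 136 to 164 CPM in transgenic libraries and 147 to 164 CPM in controls. Choroid plexus markers, with 0 called and 0 at an unadjusted p under 0.05, were at 11.7 to 22.0 CPM in transgenic libraries and 9.54 to 48.2 CPM in controls, the highest being control 3. No marker was at 0 in every library, and the part of these lists in the potassium channel results was not tested. In tissue RNA, fewer cells of a type and less RNA per cell cannot be told apart.

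Most potassium channel genes were not called as different between transgenic and control CA1. Those called were mostly lower in transgenic mice, at a share near that of all genes. Without control 2, edgeR called 9 higher and 7 lower, in a fit that called 3526 of all genes. With edgeR's quasi-likelihood test, 8 genes fell, namely Kcnt2, Kcng3, Kcnj3, Kcnv1, Kcnd3, Kcnma1, Kcna4 and Kcnc2, and Kcnj11 alone rose at a Benjamini-Hochberg adjusted p under 0.05. The 9 called genes are 11.4% of the 79, against 17.9% of all genes tested. By direction, 10.1% of the potassium channel genes fell against 10.5% of all genes, and 1.27% rose against 7.41%, so the share that fell lay near the background of the whole table. The median log2 fold change, transgenic over control, was 0.01 for the 79 genes and 0.01 for all genes tested, with 42 estimates above 0 and 37 below. At an unadjusted p under 0.05, 9 were higher and 14 lower in transgenic libraries. The share of all genes at that threshold is not given here or for the families below, so these counts have no background beside them. The summed level of the 79 genes was 5800 to 6370 CPM in transgenic libraries and 5940 to 6460 CPM in controls, so the groups overlapped.

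**Figure D1:**
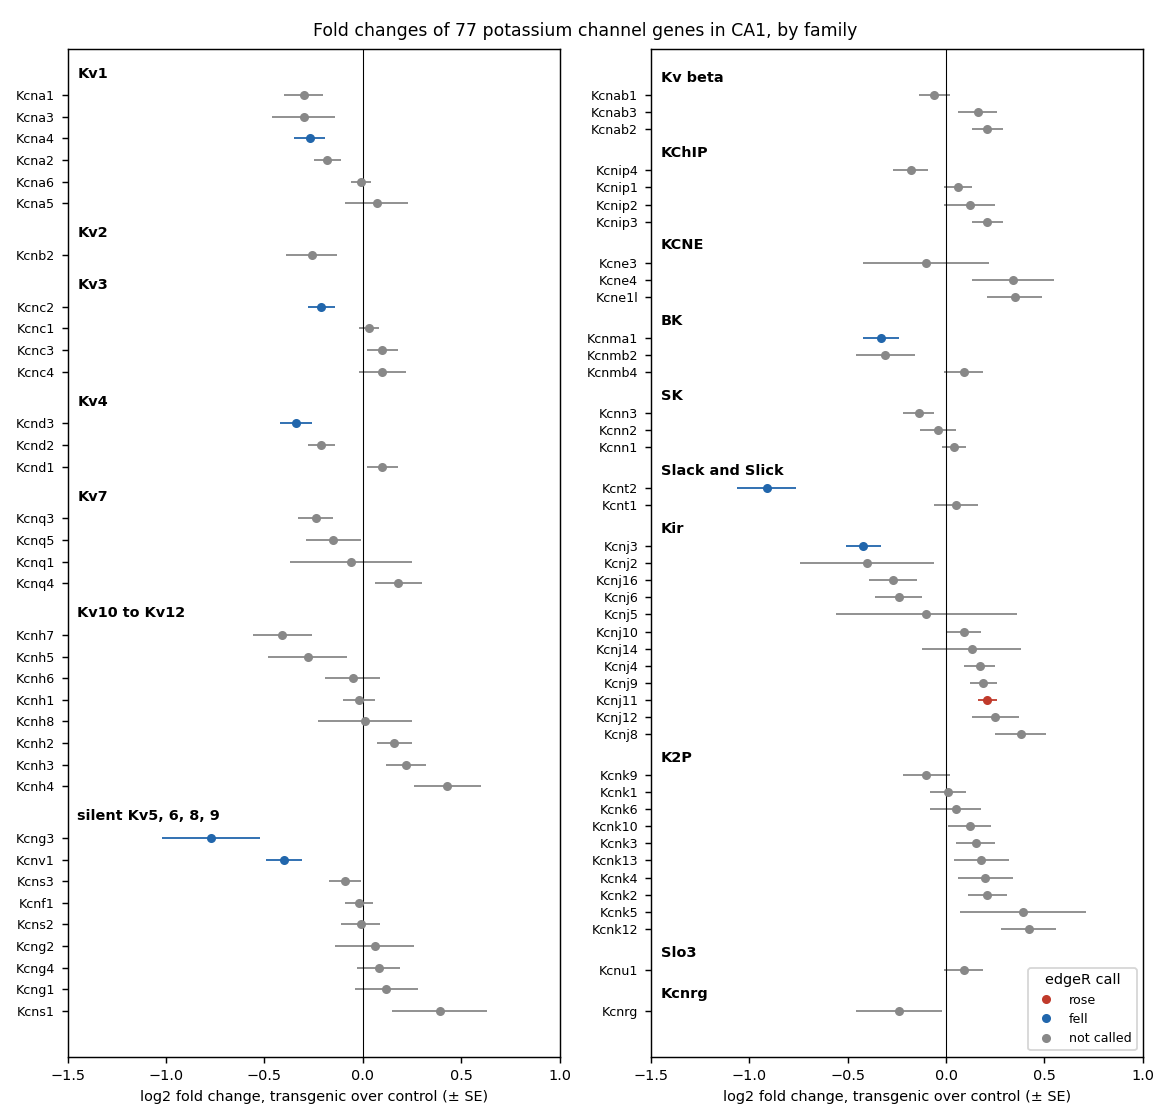
Log2 fold change (horizontal axis, transgenic over control) of 77 of the 79 potassium channel genes with its standard error, grouped by family. Blue points fell, red rose and grey were not called by edgeR at an adjusted p under 0.05. Kcnt2 stands farthest left at -0.91, and most families lie within 0.5 of 0.

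In 4 of the 79 genes, Kcnt2, Kcnj3, Kcnv1 and Kcnd3, every transgenic library was below every control library, which is 5.06% of them against 4.73% of all genes tested. In 0 of the 79 was every transgenic library above every control, against 3.04% of all genes, and in either direction the share over all genes was 7.77%. The order of levels was close between the groups. Per kilobase of exon, the mean level of the 79 genes in transgenic libraries followed that in controls with a Spearman correlation of 0.991, a description over genes measured in the same libraries.

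The fold changes followed base composition. Over the 79 genes, the log2 fold change correlated with the GC content of the longest transcript at a Spearman rho of 0.70, against 0.684 over all genes tested, a description over genes that share the same 11 libraries. The slope of each library's log2 CPM deviation on GC content, per 10 percentage points, was 0.274, 0.259, 0.176, 0.099, 0.016 and -0.061 in transgenic 1 to 6, against -0.119, -0.062, -0.201, -0.22 and -0.161 in control 1 to 5. Transgenic slopes were higher, with transgenic 6 level with control 2 and all the others apart (difference in means 0.28, two-sided exact permutation p = 0.00433, n = 6 and 5). Genes that fell had a median GC content of 45.0%, the gene that rose had 57.1% and the 70 that were not called had 53.6%. What sets the GC slope of a library was not tested. Below, each called potassium channel gene is given with the trend left in, and with a smooth GC trend removed from each library.

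With the GC trend removed, 2 potassium channel genes fell, Kcnj3 and Kcnd3, and 0 rose, by edgeR's quasi-likelihood test. That is 2.53% of the 79, against 1.98% of all genes, of which 0.821% fell and 1.16% rose. At an unadjusted p under 0.05, 3 were higher and 10 lower, again without the share of all genes at that threshold. The median log2 fold change of the 79 was -0.05. With a trend on exon length also removed, Kcnj3 alone was called, with 1.7% of all genes called and 0.544% lower, and the adjusted p of Kcnd3 was 0.0588.

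The trend can be followed in 3 sets of the 79 genes of low, middle and high GC content. In the 26 genes of lowest GC, 36.6% to 47.7%, 6 fell and 0 rose with a median log2 fold change of -0.21, against 23.9% lower and 0.615% higher among the 6669 genes of that GC range. In the 26 genes of middle GC, 47.9% to 55.1%, Kcnd3 and Kcng3 fell and 0 rose with a median of 0.00, against 1.25% lower and 7.29% higher and a median of 0.06 among the 6474 genes of that range. In the 27 genes of highest GC, 55.2% to 69.4%, 1 rose and 0 fell with a median of 0.16, against 20.7% higher and 0.0831% lower among the 3611 genes of that range. After removal the medians of the low, middle and high sets were -0.06, -0.06 and -0.02. The medians of the low and high sets had the same sign as those of all genes of their GC range, -0.17 and 0.18. In the middle set the share of members that fell was above that of all genes of the range, a description of 2 genes with no test. The share that rose was below that of the range in the high set, 1 of 27 beside 20.7%. It was also below in the middle set, 0 of 26 beside 7.29%, again with no test.

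**Figure D2:**
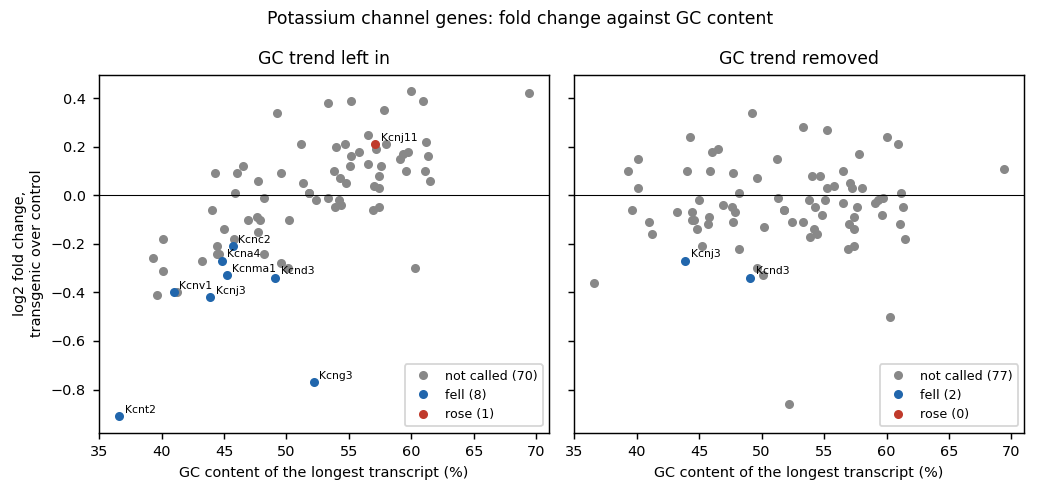
Log2 fold change (vertical axis, transgenic over control) of the 79 potassium channel genes against GC content of the longest transcript in percent, with the GC trend left in (left) and removed (right). Coloured points are called genes. The rise of the points with GC content on the left, Spearman rho 0.70, is 0.087 on the right, where only Kcnj3 and Kcnd3 are called.

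**Figure D3:**
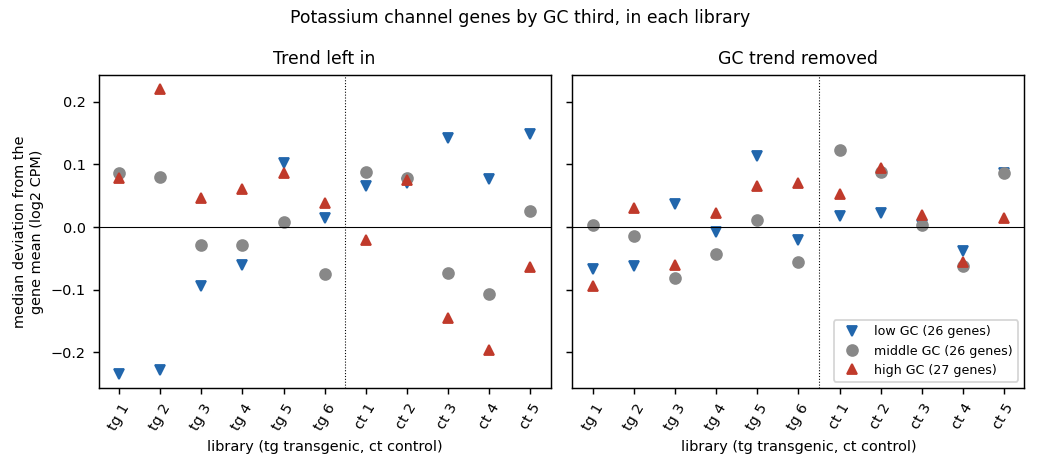
Median deviation from the gene's mean (vertical axis, log2 CPM) of the potassium channel genes of low, middle and high GC content in each transgenic and each control library, with the GC trend left in (left) and removed (right). On the left, the low-GC median was -0.235 to 0.103 in transgenic libraries and 0.066 to 0.149 in controls, and on the right the groups overlap in every set.

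Coding sequence followed the same order more loosely. The log2 fold change correlated at a rho of 0.582 with the GC content of the coding sequence and at 0.485 with that of codon position 3, which ran over 43.8% to 93.3% among the 79 genes. It correlated at -0.404 with exon length and at -0.35 with the span of the gene. With the level per kilobase in controls the correlation was -0.025. After the GC trend was removed, the value for exon length was -0.321 and that for gene span -0.10.

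Among the inward rectifiers, 1 of 12 genes fell and 1 rose. Kcnj3 encodes Kir3.1 (GIRK1), a subunit of the channels that G protein beta-gamma subunits open after activation of inhibitory receptors, and lies at chr2:55435970-55598145 on the plus strand of mm10 (ENSMUSG00000026824). Kcnj9 encodes its partner Kir3.3, and Kcnj11 encodes Kir6.2, the pore of the ATP-sensitive channel, at chr7:46093953-46100764 on the minus strand (ENSMUSG00000096146). The stretch that codes for the selectivity filter, the part of the pore that lets potassium through, is shown for the gene that fell, its partner and the gene that rose, which share this element. Sequences are GENCODE transcripts on mm10, on the coding strand, with the 15 bases of the filter in capitals and 30 bases on either side. They lie at chr2:55437597-55437671 (plus strand) for Kcnj3, chr1:172326154-172326228 (minus strand) for Kcnj9 and chr7:46099466-46099540 (minus strand) for Kcnj11.
Kcnj3: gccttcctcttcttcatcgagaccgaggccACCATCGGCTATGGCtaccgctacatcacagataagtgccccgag
Kcnj9: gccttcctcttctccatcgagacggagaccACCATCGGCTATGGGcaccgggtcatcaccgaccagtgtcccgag
Kcnj11: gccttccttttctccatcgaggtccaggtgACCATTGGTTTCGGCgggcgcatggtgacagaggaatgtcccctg

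Kcnj3 and Kcnj9 shared 63 of these 75 bases and 14 of the 15 filter bases. In these segments, codon position 3 was 88.0% GC in Kcnj3, 92.0% in Kcnj9 and 76.0% in Kcnj11, so Kcnj3 lay above Kcnj11. Over the whole coding sequence, codon position 3 was 60.6% GC in Kcnj3, 84.0% in Kcnj9 and 77.5% in Kcnj11, so Kcnj3 was the lowest.

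Kcnj3 was measured at 97.6, 96.8, 116, 124, 135 and 132 CPM in transgenic 1 to 6, against 148, 152, 160, 172 and 153 CPM in control 1 to 5. Every transgenic library was below every control, with transgenic 1 and 2 the lowest. The mean was 117 ± 16.6 CPM in transgenic libraries against 157 ± 9.4 CPM in controls (SD, n = 6 and 5), a log2 fold change of -0.42 (SE 0.09, adjusted p = 0.0127). Kcnj3 was called in all 11 fits that left out 1 library. After GC removal Kcnj3 was again lower, at 6.76 to 7.08 log2 CPM in transgenic libraries and 7.15 to 7.30 in controls, with no overlap (log2 fold change -0.27, SE 0.06, adjusted p = 0.0417). When 1 library was left out as well, that call was kept without transgenic 5 or transgenic 6 and lost in the other 9 fits, with an adjusted p of up to 0.105. The exons of Kcnj3 overlap those of the long noncoding RNA Gm26794 on the other strand over 1621 bases, 31.08% of its exon length, and the library kit does not mark strand. Gm26794 averaged 7.49 CPM in transgenic libraries and 7.88 CPM in controls.

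Kcnj11 was measured at 54.9, 57.9, 52.8, 54.3, 57.0 and 50.9 CPM in transgenic 1 to 6, against 47.5, 51.2, 47.6, 44.6 and 45.5 CPM in control 1 to 5. Transgenic libraries were higher except that transgenic 6 was just below control 2. Means were 54.6 ± 2.62 CPM in transgenic libraries against 47.3 ± 2.54 CPM in controls (SD, n = 6 and 5), a log2 fold change of 0.21 (SE 0.05, adjusted p = 0.0195). The call was lost without control 4 or control 5, with an adjusted p of up to 0.0549, and with the GC trend removed the estimate was 0.05 (adjusted p = 0.639). The sulfonylurea receptors that complete this channel, Abcc8 and Abcc9, were not called, at 0.18 (adjusted p = 0.103) and -0.33 (adjusted p = 0.0514).

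The other Kir genes were not called. Kcnj9 had 188 to 214 CPM in transgenic libraries and 153 to 207 CPM in controls, a log2 fold change of 0.19 (adjusted p = 0.0815) that was 0.03 with the GC trend removed. Kcnj6, which encodes Kir3.2, had 20.3 to 30.0 CPM in transgenic libraries and 23.8 to 39.7 CPM in controls (log2 fold change -0.24, adjusted p = 0.178). In CPM, the ratio of Kcnj3 to Kcnj9 was 0.503 to 0.666 in transgenic libraries and 0.735 to 1.12 in controls, without overlap. The ratio of Kcnj3 to Kcnj6 overlapped, at 3.22 to 6.51 in transgenic libraries and 3.73 to 6.38 in controls. Neither was scaled to exon length. These ratios were chosen after the values of their members were seen and were not tested, and Kcnj3 and Kcnj9 lie at 43.9% and 57.2% GC.

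Kcnj10 encodes Kir4.1, the main inward rectifier of astrocytes, and had the highest level per kilobase of the Kir genes, at 61.8 ± 7.37 CPM per kilobase in transgenic libraries against 58.0 ± 6.48 in controls (SD, n = 6 and 5). It was 274 to 383 CPM in transgenic libraries and 277 to 353 CPM in controls and was not called (log2 fold change 0.09, SE 0.09, adjusted p = 0.508). Kcnj16, whose product Kir5.1 assembles with Kir4.1, had an estimate of -0.27 (adjusted p = 0.120), at 43.2% GC, and of -0.07 with the GC trend removed. Kcnj8, which encodes Kir6.1 of mural cells, had 2.60 to 3.85 CPM in transgenic libraries and 2.22 to 2.98 CPM in controls (0.38, adjusted p = 0.0620).

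Sodium-activated channels included the gene with the largest fall. Kcnt2 encodes Slick, a channel opened by intracellular sodium, and lies at chr1:140246158-140612067 on the plus strand (ENSMUSG00000052726). Kcnt1 encodes Slack, with which Slick can assemble. The filter segments are shown because these relatives differ in base composition and in what was measured. They lie at chr1:140425248-140425322 for Kcnt2 and chr2:25894337-25894411 for Kcnt1, both on the plus strand, with the 15 filter bases in capitals.
Kcnt2: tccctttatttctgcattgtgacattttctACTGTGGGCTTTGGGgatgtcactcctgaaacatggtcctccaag
Kcnt1: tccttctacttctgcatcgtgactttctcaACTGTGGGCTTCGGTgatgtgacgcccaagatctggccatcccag

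The segments shared 56 of 75 bases but 11 of 25 bases at codon position 3, and GC at that position of the segment was 48.0% in Kcnt2 and 76.0% in Kcnt1. Kcnt2 had the lowest transcript GC content of the 79 genes, 36.6%. Its level was 14.9, 11.9, 15.0, 13.9, 13.6 and 14.2 CPM in transgenic 1 to 6, against 21.1, 17.6, 30.0, 35.9 and 26.1 CPM in control 1 to 5. All transgenic libraries were below all controls, and the controls were the more spread. The mean was 13.9 ± 1.13 CPM in transgenic libraries against 26.1 ± 7.21 CPM in controls (SD, n = 6 and 5), a log2 fold change of -0.91 (SE 0.15, adjusted p = 0.0103). It was called in all 11 fits with 1 library left out. After removal the ranges overlapped, at 3.67 to 4.42 log2 CPM in transgenic libraries and 3.98 to 4.79 in controls, and the gene was not called (-0.36, adjusted p = 0.235). Kcnt1 had 148 to 179 CPM in transgenic libraries and 119 to 192 CPM in controls (0.05, SE 0.11, adjusted p = 0.796). In CPM, the ratio of Kcnt2 to Kcnt1 was 0.0785 to 0.0937 in transgenic libraries and 0.0986 to 0.269 in controls, with no overlap. This ratio was again untested.

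**Figure D4:**
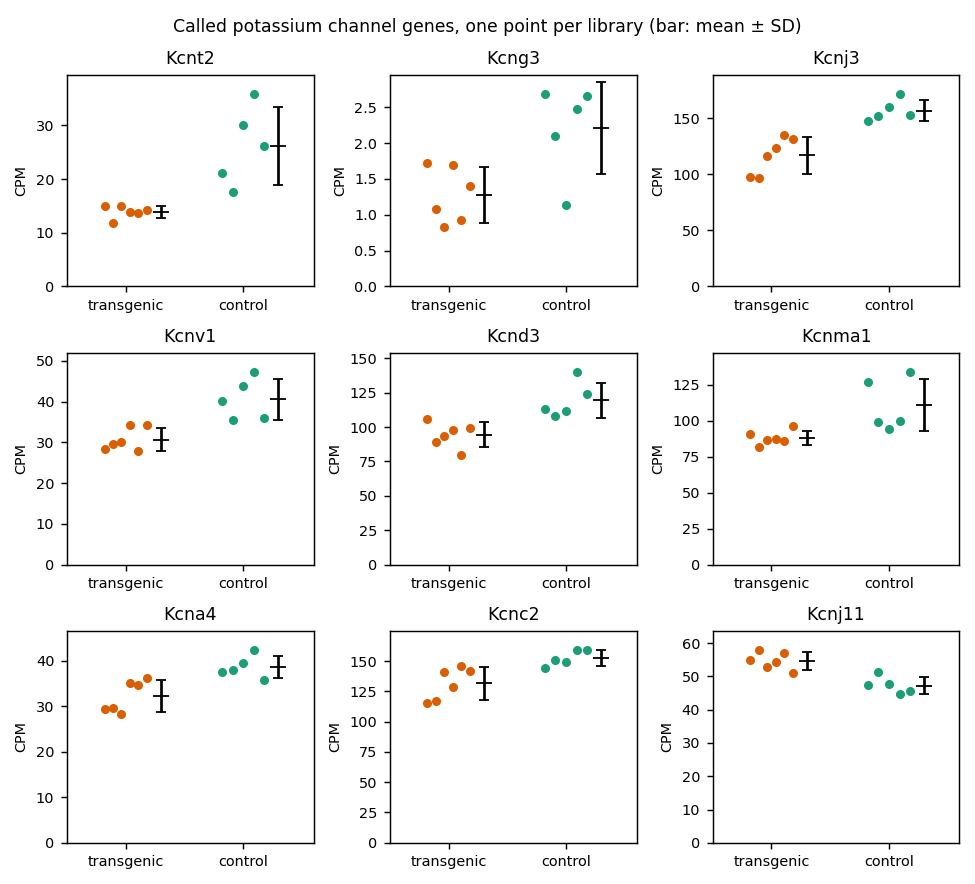
Level (vertical axis, CPM, starting at 0) of the 9 called potassium channel genes in each transgenic (left) and control (right) library, with mean and SD beside the points. In Kcnt2, Kcnj3, Kcnv1 and Kcnd3 the groups do not overlap, and in the other 5 they do.

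Of the 3 Kv4 genes, Kcnd3 fell by edgeR. Kcnd3 encodes Kv4.3 and Kcnd2 encodes Kv4.2, the A-type channels of hippocampal neurons, and Kv4.2 is the main one of CA1 pyramidal dendrites. Kcnd3 lies at chr3:105452330-105674002 on the plus strand (ENSMUSG00000040896), and is 1 of the 2 genes called after the GC trend was removed. It was measured at 106, 89.2, 93.7, 97.8, 79.7 and 99.2 CPM in transgenic 1 to 6, against 113, 108, 112, 140 and 124 CPM in control 1 to 5. The groups did not overlap, though transgenic 1 came within a few CPM of control 2. Means were 94.3 ± 9.09 CPM in transgenic libraries against 119 ± 13.1 CPM in controls (SD, n = 6 and 5), a log2 fold change of -0.34 (SE 0.08, adjusted p = 0.0172), called in all 11 fits with 1 library left out. After GC removal the estimate was the same, -0.34 (SE 0.08, adjusted p = 0.0413), and the groups still did not overlap, at 6.32 to 6.72 log2 CPM in transgenic libraries and 6.76 to 7.12 in controls. With 1 library also left out, this call was kept without transgenic 6 or control 2 and lost in the other 9 fits, with an adjusted p of up to 0.116. With a trend on exon length alone removed, the estimate was -0.23 and Kcnd3 was not called (adjusted p = 0.0678). Its transcript GC content was 49.1%, near the median of all genes, 49.6%.

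Kcnd2 was 117, 124, 135, 139, 164 and 137 CPM in transgenic 1 to 6, against 161, 150, 164, 153 and 160 CPM in control 1 to 5. Only transgenic 5 reached the control range, and the gene was not called by edgeR (log2 fold change -0.21, SE 0.07, adjusted p = 0.0592). DESeq2 called it lower (-0.21, adjusted p = 0.0476), as did the fits with voom, the replicate block or Xist level, at an adjusted p of 0.0224 to 0.0413. After removal of the GC trend its estimate was -0.07. Summed per kilobase, the Kv4 genes were at 37.6 to 43.9 in transgenic libraries and 44.4 to 47.7 in controls, without overlap and with no test. The sums of all other families overlapped, such as Kv1 at 50.0 to 59.4 in transgenic libraries and 58.1 to 64.4 in controls. Kv4 is thus the family picked out of all of them. Kcnd2 gave 30.6 of the mean Kv4 sum of 46.8 in controls, and no sum was made with the GC trend removed. In CPM, the ratio of Kcnd3 to Kcnd2 overlapped, at 0.486 to 0.905 in transgenic libraries and 0.679 to 0.92 in controls. The KChIP genes, whose products are calcium-binding subunits of Kv4, gave 0 calls of 4 by edgeR or DESeq2 and 1 gene higher at an unadjusted p under 0.05. Kcnip2, the most abundant per kilobase, had 128 to 211 CPM in transgenic libraries and 128 to 191 CPM in controls (0.12, adjusted p = 0.533). Kcnip4 had 38.8 to 55.2 CPM in transgenic libraries and 49.6 to 59.3 CPM in controls, and its estimate of -0.18 (adjusted p = 0.163) became 0.15 with the GC trend removed.

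BK channels join voltage and calcium sensing in spike repolarization. Of 3 BK genes, Kcnma1, the pore-forming subunit, fell. It lies at chr14:23289431-24014491 on the minus strand (ENSMUSG00000063142). Its filter segment, at chr14:23528383-23528457, is shown as the called large-conductance channel, with the filter in capitals.
Kcnma1: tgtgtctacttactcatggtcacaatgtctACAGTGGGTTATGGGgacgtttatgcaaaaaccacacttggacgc

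Kcnma1 was at 91.0, 81.6, 86.9, 87.7, 85.9 and 96.2 CPM in transgenic 1 to 6, against 127, 99.3, 94.3, 99.7 and 134 CPM in control 1 to 5. Transgenic 6 lay above control 3, and control 1 and control 5 were the highest. The mean was 88.2 ± 4.97 CPM in transgenic libraries against 111 ± 18.3 CPM in controls (SD, n = 6 and 5), a log2 fold change of -0.33 (SE 0.09, adjusted p = 0.0269). The call was lost when transgenic 2, 3 or 4 or control 1 or 5 was left out, with an adjusted p of up to 0.0663, with the GC trend removed (-0.21, adjusted p = 0.228) and with the length trend alone removed (-0.13, adjusted p = 0.252). Its exon length of 16976 bases is the longest of the 79. Its BK partners Kcnmb2 and Kcnmb4 encode beta subunits and were not called, at -0.31 (adjusted p = 0.171) and 0.09 (adjusted p = 0.524), and at 0.03 and 0.24 with the GC trend removed. None of the 3 SK genes, which carry the apamin-sensitive afterhyperpolarization, was called by edgeR or DESeq2, and 0 had an unadjusted p under 0.05. Kcnn2, the SK2 channel of CA1 spines, had 69.2 to 87.9 CPM in transgenic libraries and 65.3 to 88.8 CPM in controls (-0.04, SE 0.09, adjusted p = 0.792).

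Of the 6 Kv1 genes, which hold axons near rest and limit repetitive firing, Kcna4 fell and 0 rose by edgeR, with 3 lower at an unadjusted p under 0.05, and DESeq2 called Kcna4 and Kcna1 lower. Kcna4 encodes Kv1.4, a fast-inactivating axonal channel, at chr2:107290639-107298502 on the plus strand (ENSMUSG00000042604). It was at 29.3, 29.5, 28.3, 35.0, 34.7 and 36.2 CPM in transgenic 1 to 6, against 37.6, 38.0, 39.5, 42.3 and 35.8 CPM in control 1 to 5. Only transgenic 6 reached the control range, just above control 5. Means were 32.2 ± 3.51 CPM in transgenic libraries against 38.7 ± 2.41 CPM in controls (SD, n = 6 and 5), with a log2 fold change of -0.27 (SE 0.08, adjusted p = 0.0311). The call was lost without transgenic 1, 2 or 3 or control 1, 3 or 4, with an adjusted p of up to 0.0835, and with the GC trend removed (-0.14, adjusted p = 0.196).

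Kcna1 and Kcna2 encode the Kv1.1 and Kv1.2 subunits of axon initial segments and juxtaparanodes. Kcna1 was at 37.8 to 54.8 CPM in transgenic libraries and 45.2 to 63.7 CPM in controls (-0.30, SE 0.10, edgeR adjusted p = 0.0534, DESeq2 adjusted p = 0.0338), and its estimate was -0.33 with the GC trend removed. Kcna2 was the Kv1 gene with the highest level per kilobase, at 23.1 ± 2.12 CPM per kilobase in transgenic libraries against 26.2 ± 2.17 in controls (SD, n = 6 and 5), and was not called (-0.18, adjusted p = 0.0974). In the Kv1 family 5 of 6 estimates were below 0, and 6 of 6 were below 0 with the GC trend removed, with 0 calls and 3 genes lower at an unadjusted p under 0.05 in that fit. This was not particular to Kv1. In the same fit 51 of the 79 genes and 31 of the 37 Kv genes were below 0, beside 8782 of all 17293 genes tested. Every Kv3, Kv4 and SK gene was among the 51, a description with no test. The 3 Kv beta genes encode cytoplasmic partners of Kv1 and had 0 calls by edgeR or DESeq2 and 1 gene higher at an unadjusted p under 0.05. Kcnab2 was the most abundant of all 79 genes per kilobase, at 150 ± 17.4 CPM per kilobase in transgenic libraries against 129 ± 9.0 in controls (SD, n = 6 and 5). It was 662 to 928 CPM in transgenic libraries and 673 to 794 CPM in controls and was not called (0.21, SE 0.08, adjusted p = 0.0876), with an estimate of 0.03 after the GC trend was removed.

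Kcnc2 was the 1 gene called of the 4 Kv3 genes, whose channels repolarize fast enough for high firing rates and are prominent in parvalbumin interneurons. It encodes Kv3.2 and lies at chr10:112271121-112467024 on the plus strand (ENSMUSG00000035681). Its level was 115, 117, 141, 129, 146 and 142 CPM in transgenic 1 to 6, against 144, 151, 149, 159 and 159 CPM in control 1 to 5. Transgenic 5 reached the control range and the other transgenic libraries lay below it. The mean was 131 ± 13.4 CPM in transgenic libraries against 153 ± 6.64 CPM in controls (SD, n = 6 and 5), a log2 fold change of -0.21 (SE 0.07, adjusted p = 0.0459). This call was kept without transgenic 5 or transgenic 6 and lost in the other 9 fits with 1 library left out, with an adjusted p of up to 0.107, with the GC trend removed (-0.12, adjusted p = 0.274) and with the length trend removed (-0.15, adjusted p = 0.112). Of the interneuron markers given above, Slc32a1 and Cck rose at 0.22 and 0.32, Sst and Pvalb had estimates of 0.37 and 0.20 and Lhx6 one of 0.02, while Gad1, Gad2 and Vip were at -0.08, -0.19 and -0.08 and were not called. With the GC trend removed, Slc32a1 was at 0.00 and Cck at 0.16 and neither was called (adjusted p = 0.987 and 0.198), and the part of interneurons in the Kcnc2 result was not tested. The most abundant Kv3 gene per kilobase, Kcnc4, had 77.4 to 110 CPM in transgenic libraries and 71.4 to 118 CPM in controls (0.10, adjusted p = 0.575).

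Silent Kv subunits form no channel of their own and alter Kv2 channels when they assemble with them. Of 9 such genes 2 fell. Kcnv1 encodes Kv8.1, at chr15:45106284-45114920 on the minus strand (ENSMUSG00000022342), and was at 28.3, 29.5, 30.0, 34.2, 27.9 and 34.4 CPM in transgenic 1 to 6, against 40.2, 35.6, 43.8, 47.3 and 35.9 CPM in control 1 to 5. No transgenic library reached the control range, though transgenic 4 and 6 lay close to control 2 and control 5. Means were 30.7 ± 2.89 CPM in transgenic libraries against 40.6 ± 5.04 CPM in controls (SD, n = 6 and 5), a log2 fold change of -0.40 (SE 0.09, adjusted p = 0.0132), called in all 11 fits with 1 library left out. Its GC content was 41.0%, and with the GC trend removed it was not called (-0.11, adjusted p = 0.488).

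Kcng3 encodes Kv6.3, at chr17:83585957-83631895 on the minus strand (ENSMUSG00000045053), and was scarce. It was at 1.73, 1.08, 0.827, 1.69, 0.93 and 1.40 CPM in transgenic 1 to 6, against 2.69, 2.10, 1.14, 2.48 and 2.66 CPM in control 1 to 5. Control 3 lay within the transgenic range and the other controls above it. The mean was 1.28 ± 0.387 CPM in transgenic libraries against 2.21 ± 0.645 CPM in controls (SD, n = 6 and 5), a log2 fold change of -0.77 (SE 0.25, adjusted p = 0.0455). The call was lost without transgenic 2, 3 or 5 or control 1, 2, 4 or 5, with an adjusted p of up to 0.106. Removal of the GC trend gave an estimate of -0.86 and the gene was not called (adjusted p = 0.0865), nor was it with the length trend removed (-0.81, adjusted p = 0.0503). The most abundant silent subunit per kilobase, Kcnf1, had 81.5 to 105 CPM in transgenic libraries and 89.0 to 107 CPM in controls (-0.02, adjusted p = 0.856).

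Of the Kv7 genes, Kcnq3 and Kcnq5 encode subunits of the M-channel, and neither was called. Kcnq3 had 209 to 283 CPM in transgenic libraries and 245 to 328 CPM in controls (-0.24, SE 0.09, adjusted p = 0.0670), at 44.4% GC, and its estimate was -0.10 with the GC trend removed. Kcnq5 had 47.0 to 69.0 CPM in transgenic libraries and 44.8 to 75.0 CPM in controls (-0.15, SE 0.14, adjusted p = 0.469). The groups overlapped for both.

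Of the 8 genes of the Kv10 to Kv12 families, 0 were called by edgeR, with 2 higher and 1 lower at an unadjusted p under 0.05. DESeq2, which called 23.1% of all genes it tested (10.5% higher and 12.6% lower), called Kcnh4 upward and Kcnh7 downward. Kcnh3, a Kv12 channel of forebrain neurons and the most abundant of these per kilobase, had 123 to 186 CPM in transgenic libraries and 115 to 150 CPM in controls (0.22, SE 0.10, adjusted p = 0.132), and 0.01 with the GC trend removed. Kcnh7, an erg channel gene with 39.6% GC, had 77.2 to 133 CPM in transgenic libraries and 97.0 to 164 CPM in controls (-0.41, SE 0.15, adjusted p = 0.0825), and its estimate was -0.06 with the GC trend removed.

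Of the 10 K2P genes, whose channels carry the background current at rest, 0 were called by edgeR, with 1 higher at an unadjusted p under 0.05, and DESeq2 called 1, Kcnk12. Their estimates were above 0 in 9 of 10, with a median of 0.16, and in 6 of 10 with a median of 0.06 after the GC trend was removed. Kcnk1, the TWIK-1 channel of hippocampal astrocytes and granule cells, had 55.9 to 64.7 CPM in transgenic libraries and 51.4 to 75.2 CPM in controls (0.01, SE 0.09, adjusted p = 0.925). Kcnk12, the gene of highest GC content of the 79 at 69.4%, had 11.3 to 16.7 CPM in transgenic libraries and 7.76 to 13.1 CPM in controls (0.42, SE 0.14, adjusted p = 0.0573), and its estimate was 0.11 after removal.

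Of the 3 genes for KCNE subunits, single-pass partners of Kv channels, 0 were called by edgeR or DESeq2, with 1 higher at an unadjusted p under 0.05. Kcne1l was at 4.07 to 6.41 CPM in transgenic libraries and 3.30 to 4.87 CPM in controls (0.35, SE 0.14, adjusted p = 0.106). Kcnu1, known from sperm, had 3.15 to 3.96 CPM in transgenic libraries and 3.00 to 3.75 CPM in controls (0.09, adjusted p = 0.562), and Kcnrg, a regulator and not a channel, had 0.455 to 0.756 CPM in transgenic libraries and 0.561 to 1.06 CPM in controls (-0.24, adjusted p = 0.462). No auxiliary subunit of the Kv beta, KChIP or KCNE families was called. With the BK beta subunits these auxiliary genes numbered 12 and had a median log2 fold change of 0.11, beside -0.02 in the 37 Kv genes, silent subunits included, of which 5 fell.

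Levels per kilobase of exon in controls ran from 0.125 to 129 CPM per kilobase, with 29 genes at 10 or more and 15 under 1. Among the highest were Kcnab2, Kcnj10, Kcnip2 and Kcnj9, and the SD ranges of Kcnip2 and Kcnj9 overlapped. Kcnj3 was the 15th highest in transgenic libraries at 22.4 ± 3.18 CPM per kilobase (SD, n = 6) and the 8th in controls at 30.1 ± 1.8 (SD, n = 5).

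**Figure D5:**
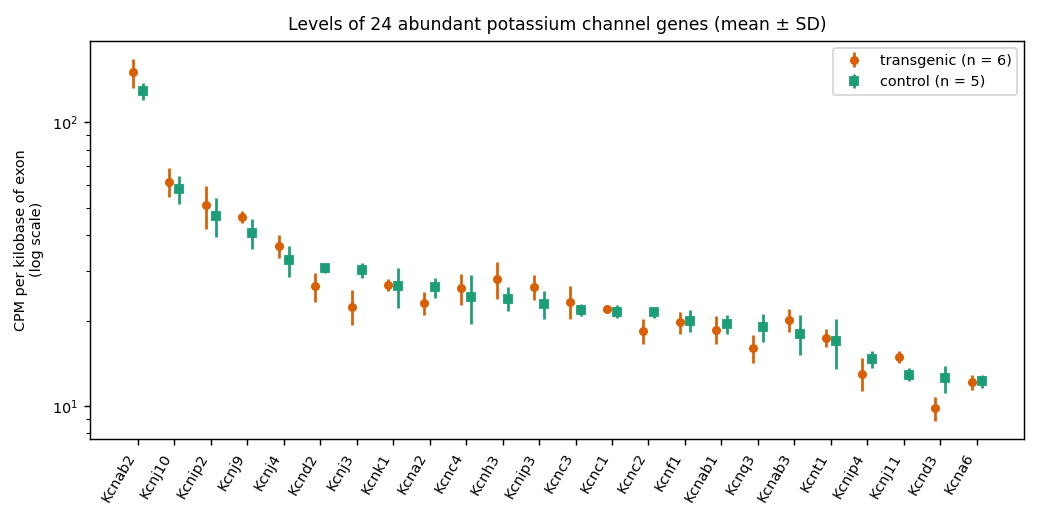
Level (vertical axis, log scale, CPM per kilobase of exon) of 24 abundant potassium channel genes in order of control level, as mean and SD, transgenic left and control right at each gene. Kcnab2 is highest in both groups, at 150 in transgenic and 129 in control libraries, and the means of Kcnj3 stand apart at 22.4 in transgenic and 30.1 in control libraries.

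Proteins that anchor or regulate these channels without a Kcn symbol formed a further list of 28 genes, of which 27 were tested and Lrrc52 was too low. In it 5 fell and 1 rose, 22.2% against 17.9% of all genes, with a median log2 fold change of -0.09. Kctd12, an auxiliary subunit of the GABA-B receptor that shapes its coupling to Kir3 channels, was at 34.9, 31.6, 39.2, 34.8, 48.4 and 49.4 CPM in transgenic 1 to 6, against 64.1, 57.6, 76.8, 85.8 and 62.0 CPM in control 1 to 5. The groups did not overlap, and the log2 fold change was -0.80 (SE 0.13, adjusted p = 0.0103). After GC removal the estimate was -0.69 (adjusted p = 0.0314), and with 1 library also left out that call was kept without transgenic 5, transgenic 6 or control 2 and lost in the other 8 fits, with an adjusted p of up to 0.0924. The exons of Kctd12 overlap those of the long noncoding RNA Gm26778 (plus strand) over 3805 bases, 62.82% of the Kctd12 exon length. The library kit does not mark strand, and the part of Gm26778 in the Kctd12 result was not tested. Cntn1, an axonal adhesion protein related to the Kv1 partner contactin-2, had 305 to 366 CPM in transgenic libraries and 392 to 430 CPM in controls (-0.30, adjusted p = 0.0119). Adam22, which binds Lgi1 and clusters with Kv1 channels, had 234 to 296 CPM in transgenic libraries and 303 to 333 CPM in controls (-0.23, adjusted p = 0.0265).

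Ank3, which encodes ankyrin-G, the anchor of Kv7 channels at the axon initial segment, had 377 to 435 CPM in transgenic libraries and 426 to 524 CPM in controls (-0.20, adjusted p = 0.0397). Csnk2a1, a catalytic subunit of casein kinase 2, which regulates SK and Kv7 channels, had 38.3 to 54.9 CPM in transgenic libraries and 54.1 to 61.8 CPM in controls (-0.27, adjusted p = 0.0478). Calm3, 1 of 3 genes for calmodulin, the calcium sensor of SK and Kv7 channels, rose, at 1490 to 1800 CPM in transgenic libraries and 1380 to 1550 CPM in controls (0.22, adjusted p = 0.0267). Of these 6, the calls of Kctd12 and Cntn1 held in all 11 fits with 1 library left out. Those of the other 4 were lost without transgenic 1, 2 or 3 or control 4. Adam22 was also lost without control 1 or 5 (adjusted p of up to 0.0659), Calm3 without control 3 or 5 (up to 0.0713), Ank3 without transgenic 4 or control 1, 3 or 5 (up to 0.0995), and Csnk2a1 in every such fit but those without transgenic 5 or 6 (up to 0.119). With the length trend removed, Ank3 turned to 0.12 (adjusted p = 0.194), and Adam22 at -0.06, Csnk2a1 at -0.22 and Calm3 at 0.16 were not called (adjusted p = 0.404, 0.0900 and 0.0728). With the GC trend removed, the estimate was -0.13 for Cntn1, -0.11 for Adam22, -0.18 for Ank3, -0.12 for Csnk2a1 and 0.04 for Calm3, and none of these 5 was called by edgeR (adjusted p of 0.0628 for Cntn1, 0.251 for Adam22, 0.113 for Ank3, 0.310 for Csnk2a1 and 0.724 for Calm3). In that fit Kctd12 fell and Rgs7, a brake on G protein signalling to Kir3 channels, rose. These 2 are 7.41% of the 27 genes of the list tested, against 1.98% of all genes. Rgs7 had 69.4 to 79.5 CPM in transgenic libraries and 67.8 to 78.1 CPM in controls, an estimate of -0.01 with the trend left in (adjusted p = 0.911) and 0.51 with it removed (adjusted p = 0.0314), at 36.7% GC. With 1 library also left out, the Rgs7 call was kept without transgenic 5, transgenic 6 or control 2 and lost in the other 8 fits (adjusted p of up to 0.0931).

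In the authors' deposited table of genes higher in transgenic mice there were 5 of the 79 genes, Kcnj9, Kcnj11, Kcnip3, Kcnk12 and Kcnh4. The authors' deposited table of lower genes held 12, and among all 17 the 9 called here stood with the same direction. Kcnt2 had a log2 fold change of -0.91 with an adjusted p of 1.56e-06 and Kcnj3 one of -0.42 with 0.000497 in the authors' deposited table. The 8 listed there and not called here had an adjusted p above 0.05 in edgeR, such as Kcna1 and Kcnd2 with the values given above.

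Of the genes just inside the count rule, Kcnk5 reached 10 counts in 8 libraries (2 to 31 counts), Kcnj5 in 9 (8 to 44), and Kcne3, Kcnq1 and Kcnrg in 10. Just outside it, Kcnmb1 reached 10 counts in 4 libraries (2 to 38 counts), Kcne2 in 3 (1 to 14), Kcnj13 in 3 (0 to 46) and Kcnn4 in 1 (2 to 10). The other 11 genes left out, which include Kcne1, Kcnj1 and Kcna7, did not reach 10 counts in any library, while 74 of the 79 did so in all 11.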

How the data were processed

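Per the labels' protocols, CA1 polyadenylated RNA went through a kit that does not mark strand, with single-end 50-base reads. The authors deposited raw counts per gene for each library on build mm10. Named per the submitters' processing notes are STAR 2.5.2b, Subread 1.5.1, featureCounts and FastQC 0.11.5, for which roles and settings were not given. Separately, the authors deposited tables of higher and lower genes with a log2 fold change, an adjusted p-value and, per library, a signal that is the count scaled by a size factor. Only the log2 fold changes and adjusted p-values were used, and their tool was not given in any source used here.

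Gene names, positions, exon lengths and transcript sequences came from the GENCODE M21 annotation on mm10, and GC content from the longest transcript. Counts were filtered with filterByExpr by genotype (17293 genes, 99.9% of counts), scaled with TMM and tested with edgeR 4.0.16 in R 4.3.3 (quasi-likelihood F test, all 11 libraries, no covariate), with p-values adjusted over all genes by Benjamini-Hochberg and a threshold of 0.05. CPM are TMM-scaled, and fitted log values used a prior count of 2. For the GC removal, a lowess curve (span 0.3) of each library's log2 CPM deviation on GC content entered as an offset. The steps were tested on simulated data. Between libraries of 1 group, chi-square over degrees of freedom was 6.46 to 54.3, and each library counted as its own replicate. Pairs with transgenic 6 were at 18.5 to 54.3, and all other pairs at 6.46 to 29.9. With 6 and 5 libraries, exact permutations over all splits were used for single values.

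The alternatives were other size factors, upper-quartile scaling, other filters, DESeq2 1.42.0, replicate number as a block, voom with sample weights (limma 3.58.1), Xist level as a covariate, removal of GC and length trends, and leaving out each library. Named genes were the called members (up to 10 that rose and 12 that fell), the most abundant member per kilobase in each family, channels best known from CA1 and its glia, and up to 6 called partner genes, and genes that a small count refers to. Kcnj16, Kcnj8, Kcnk12, Kcnh7, Kcnmb2, Kcnmb4, Abcc8, Abcc9 and Rgs7 were added after their values were seen. Some genes that this rule names, a marker gene and a sequence are not reported here. The members, gene lists and alternatives were chosen with earlier results of these data known. Because the kit does not mark strand, reads of overlapping genes on the other strand cannot be told apart.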

Additional observations from a re-analysis of the deposited data

Results flagged for a closer look

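Among the 68 groups of libraries examined for named genes, 2 held a library far from the others, and chance flags about 1 in 20 such groups. Calm3, a calmodulin gene, was lowest in transgenic 6 at 1490 CPM, against 1680 to 1800 CPM in the other transgenic libraries, and without transgenic 6 it was still called (adjusted p = 0.00327). Csnk2a1, a casein kinase 2 subunit, was highest in control 4 at 61.8 CPM, against 54.1 to 55.9 CPM in the other controls, and without control 4 it was not called. Neither of these is a potassium channel gene.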

How the results depend on the processing

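The count of all genes called, 3094, was 4774 with voom and sample weights, 342 with the GC trend removed, 294 with GC and length trends removed and 1155 to 4712 with 1 library left out. With the GC trend removed and 1 library left out it was 0 to 942. In that family edgeR called 0 genes in 8 of 11 fits, with 2490 to 3225 genes at an unadjusted p under 0.05, the exceptions being the fits without transgenic 5, transgenic 6 or control 2. The cause was not tested. Of potassium channel genes, 1 rose, against 3 with DESeq2, 5 with voom, 2 with Xist level as a covariate, 0 with GC or with GC and length trends removed, and 0 to 9 with 1 library left out, the 9 being without control 2, where 7 fell, and 5 without transgenic 6. The 8 that fell became 14 with voom, 13 with Xist (3908 of all genes called), 4 with the length trend removed, 2 with the GC trend removed, 1 with both removed and 4 to 12 with 1 library left out, the 4 being without transgenic 2 or 3, the 12 without transgenic 5, and 5 without control 1 or 5. With the GC trend removed and 1 library left out, 0 rose and 0 to 3 fell. The 6 partner genes became 3 without a filter, 2 with the GC trend or both trends removed, 3 with the length trend removed, 2 to 8 with 1 library left out and 0 to 3 with the GC trend also removed. The median log2 fold change of the 79 genes, 0.015, was -0.051 with the GC trend removed, -0.046 with both removed, -0.000 to 0.035 with 1 library left out and -0.063 to -0.035 with the GC trend also removed. The GC slope difference stayed at 0.250 to 0.317 and the Camk2d difference at -0.422 to -0.081 with 1 library left out.

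The labels do not say whether the replicate numbers pair the libraries. Deviations of same-numbered libraries correlated at 0.197, -0.027, -0.185, -0.051 and 0.023. Correlations between different numbers were not set beside them, so these values do not decide it. With the replicate block, 4594 of all genes were called, and 6 potassium channel genes rose and 13 fell. With the replicate block and the GC trend removed together, 746 of all genes, 0 potassium channel genes upward, 3 downward and 2 partner genes were called, and the median was -0.050.

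Some estimates changed sign, several of them near 0. Farther from 0 were Ank3, which was called at -0.20, and Kcnip4 at -0.18, Kcnh3 at 0.22 and Kcnrg at -0.24, which were not called. With the GC trend removed, with GC and length trends removed, and with the replicate block and the GC trend removed, Kcnc4 was -0.08, -0.09 and -0.15, Kcnt1 -0.08, -0.04 and -0.06, Kcnk1 -0.06, -0.09 and -0.06, and Kcnip4 0.15, 0.14 and 0.17. Kcnip2 was -0.02 and -0.04 with GC or both trends removed. With the length trend removed, Kcnn2 was 0.03, Kcnk1 -0.05 and Ank3 0.12. With 1 library left out, with or without the GC trend, the range was -0.16 to 0.23 for Kcnc4, -0.18 to 0.02 for Kcnf1, -0.03 to 0.29 for Kcnh3, -0.10 to 0.20 for Kcnip2, -0.23 to 0.18 for Kcnip4, -0.10 to 0.12 for Kcnk1, -0.22 to 0.00 for Kcnn2, -0.31 to 0.06 for Kcnrg, and -0.16 to 0.12 for Kcnt1. Depth limits the scarcest genes, such as Kcng3, Kcnk5 and Kcnj5.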
